A study of Homo sapiens with 12 samples.

Results

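The effect of fibroblast co-culture on gefitinib-treated cells was read from 6 of the 12 arrays of the series. PC9, a human lung adenocarcinoma line that carries an activating EGFR mutation and depends on that receptor, had been given the EGFR kinase inhibitor gefitinib at 0.5 µM in both groups. In 3 of the samples, here called the gefitinib monocultures, the cells grew alone. In the other 3, the gefitinib co-cultures, they shared the well for 48 h with MRC-5, a line of human fetal lung fibroblasts kept behind an insert with 1 µm pores. The members were chosen by sample title, with no measured value involved. Per the labels, drug was given from 24 h, the cells were washed before the co-culture, and the medium held 10% FCS. The labels name EMEM for the co-culture and RPMI 1640 otherwise, so that fibroblasts and medium cannot be told apart if the monocultures stayed in RPMI 1640, which the sources used here do not give. They also do not give whether gefitinib was still present during the co-culture, nor what the ending WH of each co-culture title stands for. The other 6 arrays, PC9 with DMSO and PC9 in co-culture without gefitinib, served to estimate the spread and to set the levels beside those of undrugged cells. PC9 is 1 line, and no label says that the samples of a group came from separate cultures, so p-values measure the spread between these samples.

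In cells driven by mutant EGFR, the receptor keeps the RAS, RAF, MEK and ERK kinases active. ERK switches on a set of transcription factors, phosphatases and Sprouty proteins, several of which act back on the pathway as brakes, and it drives entry into the cell cycle. Gefitinib shuts this output down. Fibroblasts secrete growth factors and cytokines that can reach receptors other than EGFR, and such signals are known to protect EGFR-mutant cells from EGFR inhibitors in culture.

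Between 21815 and 22820 probes per compared array were above background. Mean raw signals ran from 377.4 to 393.3 intensity units in the gefitinib monocultures and from 418.7 to 443.8 in the gefitinib co-cultures, which did not overlap, before the arrays were brought to a common distribution. The part of this gap in the results was not tested beyond the scaling alternatives. On the first principal component, which held 59.3% of the variance, the gefitinib co-cultures lay at 21.45, 16.43 and 12.72, between the gefitinib monocultures (42.66 to 43.50) and the arrays without gefitinib (-31.61 to -28.29), and further apart from each other than the arrays of any other group. All 11 epithelial markers were above background on every array. Of 9 defining fibroblast markers, COL3A1, LUM, THY1, PDGFRB and POSTN were above background on 0 arrays of the gefitinib co-cultures, FAP and COL1A2 on 1, DCN on 2 and COL1A1 on 3, the last also on all 3 gefitinib monocultures. Their summed linear signal was 282.2 to 298.2 in the gefitinib monocultures and 266.1 to 328.7 in the gefitinib co-cultures, and that of all 20 fibroblast markers was 3510 to 3619 against 2425 to 2495. In bulk RNA, fewer cells of a kind and less of a transcript per cell cannot be told apart.

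Of 13514 genes tested, 1820 (13.5%) differed between the gefitinib co-cultures and the gefitinib monocultures at an adjusted p under 0.05 by limma. Of these, 960 (7.1% of the genes tested) were higher and 860 (6.36%) were lower. A change of at least 1.5-fold was reached by 829 genes (6.13%), 469 higher (3.47%) and 360 lower (2.66%), and one of at least 2-fold by 84 that rose and 52 that fell. The 3 arrays of each group did not overlap for 4290 genes (31.7%), 15.3% with the co-cultures higher and 16.5% with them lower. The count of 1820 was 1168 without array 2 and 1096 without array 3 of the gefitinib co-cultures. The number that fell was 541 without array 1 of the gefitinib monocultures and 529 and 479 without those co-culture arrays, while the number that rose was 639 and 617 without the latter. The median difference over all genes was -0.01 log2 units. Scaling the arrays to a common median over all probes, in place of quantile normalization, moved that median to 0.187 and the share of rises among the calls from 52.7% to 91.1% (1946 higher, 189 lower), so falls of small size are relative to the scaling used. Scaling over the passing probes alone gave 58.9% rises. Among settings with 1 value per gene, no gene called under both the reported and another setting changed sign. Of 607 called genes with several passing probes, 2 (KCNK6 and KREMEN2) had another probe called the other way.

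The genes that ERK signalling switches on were higher in the gefitinib co-cultures. ETV5, an ETS transcription factor of the PEA3 group, stood at log2 levels of 5.52, 5.51 and 5.85 in the gefitinib monocultures and at 7.68, 8.02 and 8.33 in the gefitinib co-cultures. The groups lay far apart, and no co-culture array reached the mean of 9.68 seen with DMSO. ETV5 rose by 2.38 ± 0.15 log2 units (moderated SE, 3 arrays per group), or 5.21-fold, with an adjusted p of 5.6e-06 by limma. Its relative ETV4 rose by 1.77 ± 0.18 and reached 6.23, 7.02 and 6.97, again under its DMSO mean of 8.70.

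Several negative regulators of the pathway on the ERK output list rose with them. DUSP6, a phosphatase that acts on ERK, had log2 levels of 5.02, 4.94 and 4.69 in the gefitinib monocultures, 1 of which was not above background, and 6.60, 6.69 and 7.00 in the gefitinib co-cultures. All co-culture values exceeded all monoculture values and fell short of the DMSO mean of 8.33. DUSP6 rose by 1.88 ± 0.12 (adjusted p = 6.08e-06 by limma). DUSP5, a nuclear ERK phosphatase, went from 8.20, 8.00 and 8.28 to 10.13, 10.14 and 10.03, a rise of 1.94 ± 0.11, which took it to its level with DMSO (mean 9.94). The Sprouty gene SPRY2, a brake on receptor signalling, went from 6.35, 6.67 and 6.35 to 8.42, 8.53 and 8.30, a rise of 1.95 ± 0.11. Its mean with DMSO was 8.17, so both of these brakes stood about where they were without drug. SPRY4 was not well above background on its fitted probe in the gefitinib monocultures and rose at least 3.82-fold on that probe. SPRED1, which restrains RAS, rose by 1.34 ± 0.08 (adjusted p = 5.6e-06 by limma).

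**Figure D1:**
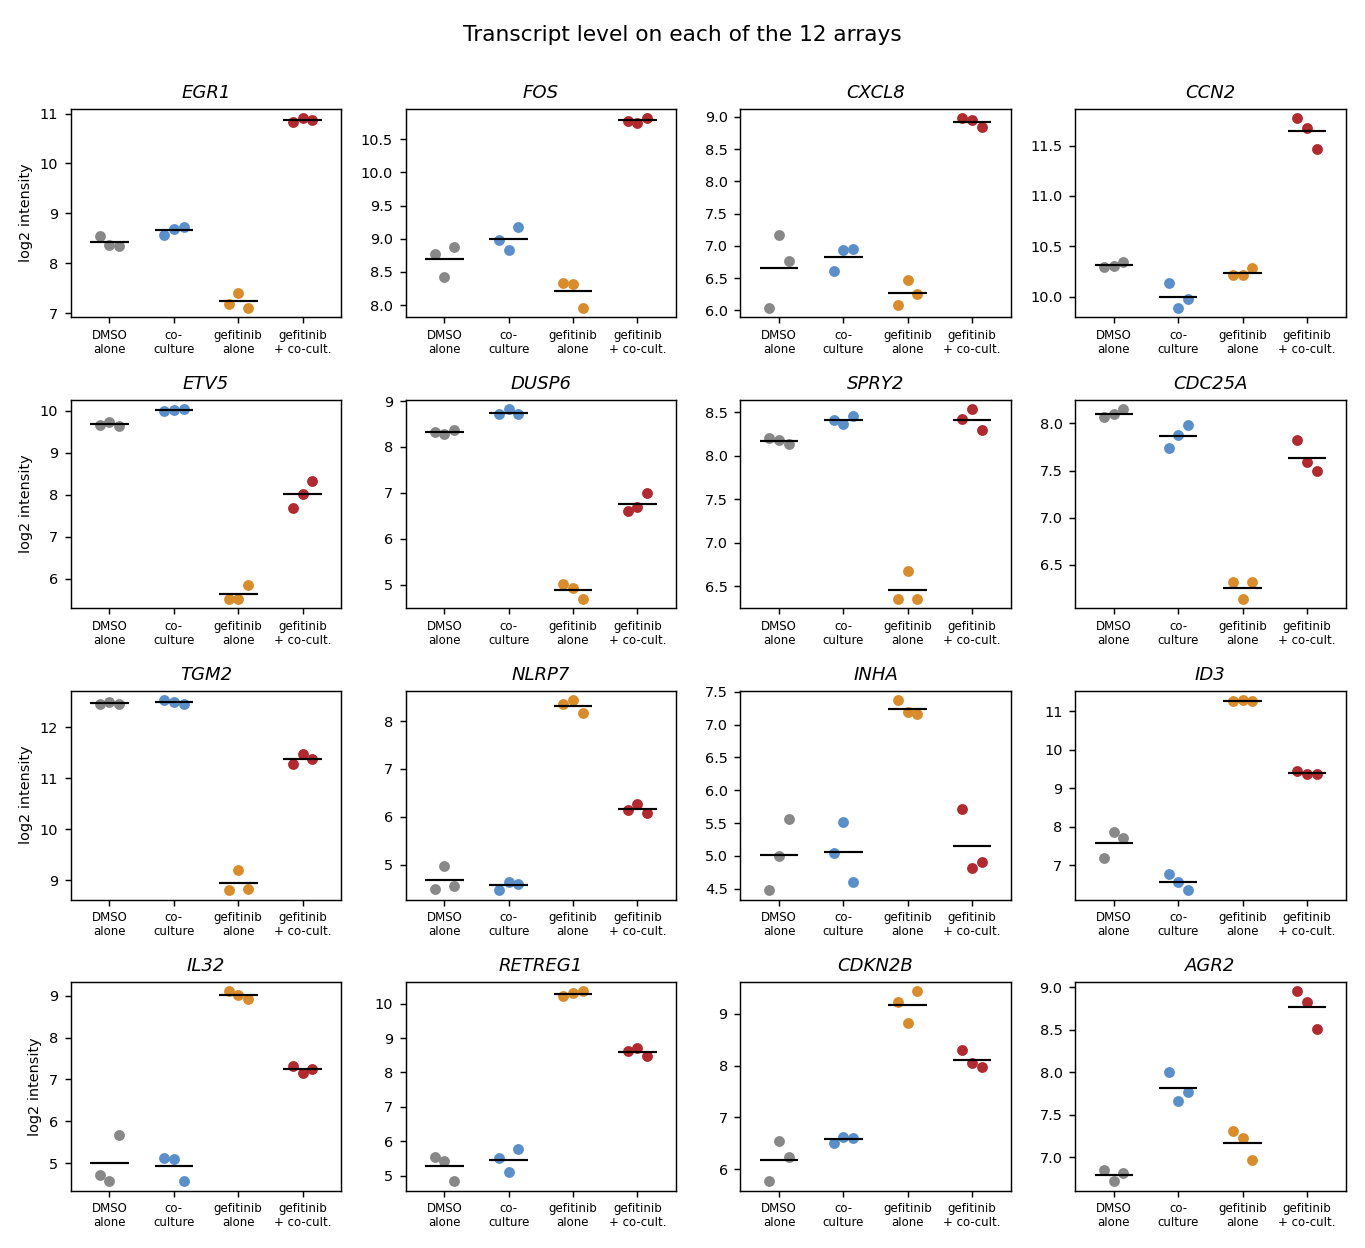
Log2 intensity of 16 genes on each of the 12 arrays; each point is 1 array, the bar is the group mean, and each panel has its own axis, which does not start at 0. In all 16 panels the 3 gefitinib co-cultures lie apart from the 3 gefitinib monocultures, which the rules that named most of these genes required. Over all genes tested, 31.7% separated in this way. For ETV5, DUSP6 and TGM2 the gefitinib co-cultures sit between the gefitinib monocultures and the groups without drug. For EGR1, FOS, CXCL8 and CCN2 they sit above all other groups.

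Of 23 tested genes of ERK output, 17 rose, 1 fell and 5 did not pass, with a median of 1.34 against -0.01 over all genes. The count of rises was 17 in each fit without 1 of the 6 compared arrays, with medians from 1.317 to 1.379. Other members that rose were PHLDA1 (2.25 ± 0.12), the AP-1 subunit FOSL1 (1.98 ± 0.14), the ephrin receptor EPHA2 (1.77 ± 0.13), the EGF family ligand HBEGF (1.49 ± 0.13), MYC (0.86 ± 0.10) and the cyclin CCND1 (0.53 ± 0.09). EPHA4 was the 1 member that fell, by 0.67 ± 0.20 (adjusted p = 0.0442 by limma), a call that ended in each of the 6 fits without 1 compared array (adjusted p from 0.0504 to 0.158). LIF (0.61, adjusted p = 0.0578 by limma), DUSP7 (0.22), PLAUR (-0.01), EREG (-0.11) and SPRED3 (-0.24) did not pass, and DUSP7, EREG and SPRED3 were above background on at most 1 array of either group.

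Immediate early genes encode transcription factors that are induced within minutes of a growth signal, without new protein synthesis. EGR1 had the largest rise of any gene called. Its log2 levels were 7.18, 7.41 and 7.11 in the gefitinib monocultures and 10.83, 10.91 and 10.87 in the gefitinib co-cultures, a rise of 3.63 ± 0.10, or 12.4-fold, with an adjusted p of 9e-09 by limma. Unlike ETV5 and DUSP6, it stood well above its means with DMSO (8.42) and in co-culture without drug (8.66). FOS went from 8.34, 8.32 and 7.96 to 10.78, 10.75 and 10.82, a rise of 2.58 ± 0.14, likewise above the DMSO mean of 8.69. MAFF, a small MAF factor, went from 6.61, 6.72 and 6.27 to 8.51, 8.35 and 8.48, against 7.71 with DMSO. No co-culture array of these 3 genes overlapped a monoculture array, which the rule for the largest rises required.

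Of 15 tested immediate early genes, 6 rose, 1 fell and 8 did not pass, with a median of 0.51 that was 0.335 without array 1 of the gefitinib monocultures. With median scaling over all probes 11 rose and 0 fell, with a median of 0.77. The other 3 that rose were FOSB (1.53 ± 0.19), ZFP36, whose protein destabilises inflammatory mRNAs (0.92 ± 0.10), and JUN (0.82 ± 0.10). ATF3, which many stresses induce, fell by 0.59 ± 0.09 (adjusted p = 0.00212 by limma), from a mean of 9.26 to 8.67, and this call ended with median scaling over all probes. JUNB (0.30), IER2 (0.64), SRF (0.18), KLF2, KLF4, KLF6, EGR3 and NR4A2 did not pass, with adjusted p from 0.0597 to 0.877 by limma. Members of 1 family thus stood apart, with FOS up by 2.58 and JUNB at 0.30 (adjusted p = 0.153 by limma). EGR3, a relative of EGR1, was not above background on any gefitinib monoculture.

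The CArG box is the sequence that serum response factor binds, often beside ETS factors that ERK phosphorylates. Matches to it were sought on both strands in the 250 bases before each annotated start, taken from RefSeq (GRCh38.p14), where 10705 of the 13514 genes had at least 1 window. EGR1 and SRF held one among the 13 immediate early genes with a window, against 1.5% of all genes, and 0 of 14 ERK output genes did. The EGR1 promoter is shown because this gene rose most. It lies at chr5:138465229-138465478 on the plus strand, and capitals mark the CArG boxes at -105 to -96 and at -83 to -74 from the start. A match is a description of the letters and not of binding.
EGR1: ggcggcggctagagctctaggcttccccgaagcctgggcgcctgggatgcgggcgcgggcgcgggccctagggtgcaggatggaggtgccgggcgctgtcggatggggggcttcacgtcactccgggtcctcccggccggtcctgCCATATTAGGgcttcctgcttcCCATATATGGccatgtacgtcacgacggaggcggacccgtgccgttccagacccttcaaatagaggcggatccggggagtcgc

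Several other genes were among the largest rises. CXCL8, a chemokine that attracts neutrophils, had log2 levels of 6.09, 6.47 and 6.26 in the gefitinib monocultures and 8.98, 8.94 and 8.84 in the gefitinib co-cultures. The groups were far apart, and the co-cultures also lay above all arrays without drug. CXCL8 rose by 2.65 ± 0.23, or 6.27-fold (adjusted p = 5.63e-05 by limma). TGM2, a transglutaminase that cross-links proteins, went from 8.81, 9.21 and 8.83 to 11.28, 11.48 and 11.38, a rise of 2.43 ± 0.11 that left it under its DMSO mean of 12.47. MALL, a membrane raft protein, went from 7.04, 7.10 and 7.12 to 9.11, 9.21 and 9.53, under a DMSO mean of 10.59. Each of the 12 largest rises kept its call and direction in all 22 other settings in which it was tested.

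DNA replication genes rose. CDC25A, the phosphatase that releases cyclin-dependent kinases at the start of S phase, stood at 6.32, 6.14 and 6.32 in the gefitinib monocultures and at 7.82, 7.59 and 7.49 in the gefitinib co-cultures. That is a rise of 1.37 ± 0.11 without overlap, to a level short of the DMSO mean of 8.10. MCM10, which helps start replication forks, rose by 1.36 ± 0.12, GINS2, a subunit of the replicative helicase, by 1.13 ± 0.11, and CDC45, its partner, by 0.98 ± 0.09. Of 32 tested genes of replication and the G1/S transition, 29 rose, 0 fell and 3 did not pass, with a median of 0.72, and 27 to 29 rose in fits without 1 compared array. The 3 were CDC6 (0.27), GINS1 (0.19) and E2F1 (-0.34), the last encoding a transcription factor that drives many of the others.

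Mitosis genes rose as well. MAD2L1, a spindle checkpoint protein, went from 8.44, 8.31 and 8.49 to 9.42, 9.50 and 9.75, a rise of 1.14 ± 0.11 that left it under its DMSO mean of 10.28. BUB1B, a checkpoint kinase, rose by 0.93 ± 0.10, BUB1 by 0.77 ± 0.10 and the kinesin KIF2C by 0.67 ± 0.09. All 32 tested mitosis genes rose (0.40 to 1.14, median 0.61), and in all 32 the 6 arrays separated by group, against 15.3% of all genes that separated upward. Between 25 and 29 of them passed in fits without 1 compared array, with medians from 0.593 to 0.649. MKI67, the proliferation marker, rose by 0.46 ± 0.13 (adjusted p = 0.0365 by limma), a call that ended in each of the 6 fits without 1 compared array (adjusted p from 0.0566 to 0.125).

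Promoter motifs were counted in these lists. The shares describe the lists, whatever their members did in co-culture, and test nothing about the co-culture effect. The E2F letters TTTCCCGC, TTTCGCGC, TTTGCCGC and TTTGGCGC, on either strand, were found in 14 of 30 replication genes with a window (46.7%), against 5.4% of all genes. The CHR element TTTGAA, which is bound by the complex that controls mitotic genes, was found in 13 of 26 mitosis genes against 12.6% of all genes, and the letters CCAAT, with which it is often paired, in 21 (80.8%) against 41.4%. The E2F letters were found in 3 of 26 mitosis genes (11.5%). The replication and mitosis genes below are those with the smallest p among holders with a single annotated window. CDC25A lies at chr3:48188418-48188667 on the minus strand, with its E2F letters at -44 to -37, and GINS2 at chr16:85688955-85689204 on the minus strand, with its letters on the opposite strand at -31 to -24. BUB1B lies at chr15:40160819-40161068 on the plus strand, with its CHR at -23 to -18, and PRC1, a protein of the mitotic spindle that rose by 0.63 ± 0.08, at chr15:90994536-90994785 on the minus strand, with its CHR at -20 to -15. Capitals mark these letters.
CDC25A: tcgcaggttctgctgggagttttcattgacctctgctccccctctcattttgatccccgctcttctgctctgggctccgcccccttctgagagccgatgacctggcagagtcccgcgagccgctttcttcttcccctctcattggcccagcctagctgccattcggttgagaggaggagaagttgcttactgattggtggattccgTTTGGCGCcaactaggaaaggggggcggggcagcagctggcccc
GINS2: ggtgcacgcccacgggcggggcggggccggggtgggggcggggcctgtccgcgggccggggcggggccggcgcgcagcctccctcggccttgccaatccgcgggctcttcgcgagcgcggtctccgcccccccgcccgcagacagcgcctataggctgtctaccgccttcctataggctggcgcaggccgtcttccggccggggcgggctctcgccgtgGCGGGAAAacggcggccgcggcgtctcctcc
BUB1B: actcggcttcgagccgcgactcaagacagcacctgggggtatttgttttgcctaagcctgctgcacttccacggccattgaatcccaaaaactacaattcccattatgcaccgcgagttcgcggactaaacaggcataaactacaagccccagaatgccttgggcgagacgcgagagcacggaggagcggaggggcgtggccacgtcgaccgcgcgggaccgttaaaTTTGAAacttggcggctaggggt
PRC1: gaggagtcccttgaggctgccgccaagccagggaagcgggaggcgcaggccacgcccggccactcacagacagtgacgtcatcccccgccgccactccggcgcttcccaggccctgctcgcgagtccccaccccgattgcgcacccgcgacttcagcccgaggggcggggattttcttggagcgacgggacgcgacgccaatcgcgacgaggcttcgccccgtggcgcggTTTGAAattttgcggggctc

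Genes of ribosome assembly rose in part. Of 23 tested, 11 rose, 0 fell and 12 did not pass, with a median of 0.33. Among them BOP1 went from 9.41, 9.36 and 9.35 to 9.95, 10.06 and 10.04, a rise of 0.64 ± 0.10, and the helicase DDX21 rose by 0.59 ± 0.09, RRS1 by 0.63 ± 0.11 and NOP58 by 0.60 ± 0.11. The count was 7 without array 2 of the gefitinib co-cultures, and 16 with median scaling over all probes, where the median was 0.61. Of 23 cytosolic ribosomal protein genes, 0 passed the test by limma (1 at an unadjusted p under 0.05), with a median of -0.01 that was 0.237 with median scaling over all probes.

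Inhibitors of the cell cycle moved the other way. CDKN2B, which blocks the kinases CDK4 and CDK6, had log2 levels of 9.22, 8.83 and 9.43 in the gefitinib monocultures and 8.30, 8.06 and 7.98 in the gefitinib co-cultures. It fell by 1.05 ± 0.19 (adjusted p = 0.00488 by limma) without overlap and stayed above its DMSO mean of 6.18. CDKN1B, which encodes p27, fell by 0.55 ± 0.10, from 9.79, 9.67 and 9.81 to 9.37, 9.05 and 9.19. TXNIP fell by 0.52 and BTG1 by 0.44. Of 13 tested genes of cell cycle arrest and exit, 5 fell, CDKN2D rose by 0.62 ± 0.15, and 7 did not pass, among them CDKN1A (-0.17, adjusted p = 0.412 by limma). The median was -0.47, and with median scaling over all probes it was -0.199 with 1 fall, CDKN2B. CDKN2D ended its call without array 3 of the gefitinib monocultures or arrays 2 or 3 of the gefitinib co-cultures (highest adjusted p 0.0626).

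**Figure D2:**
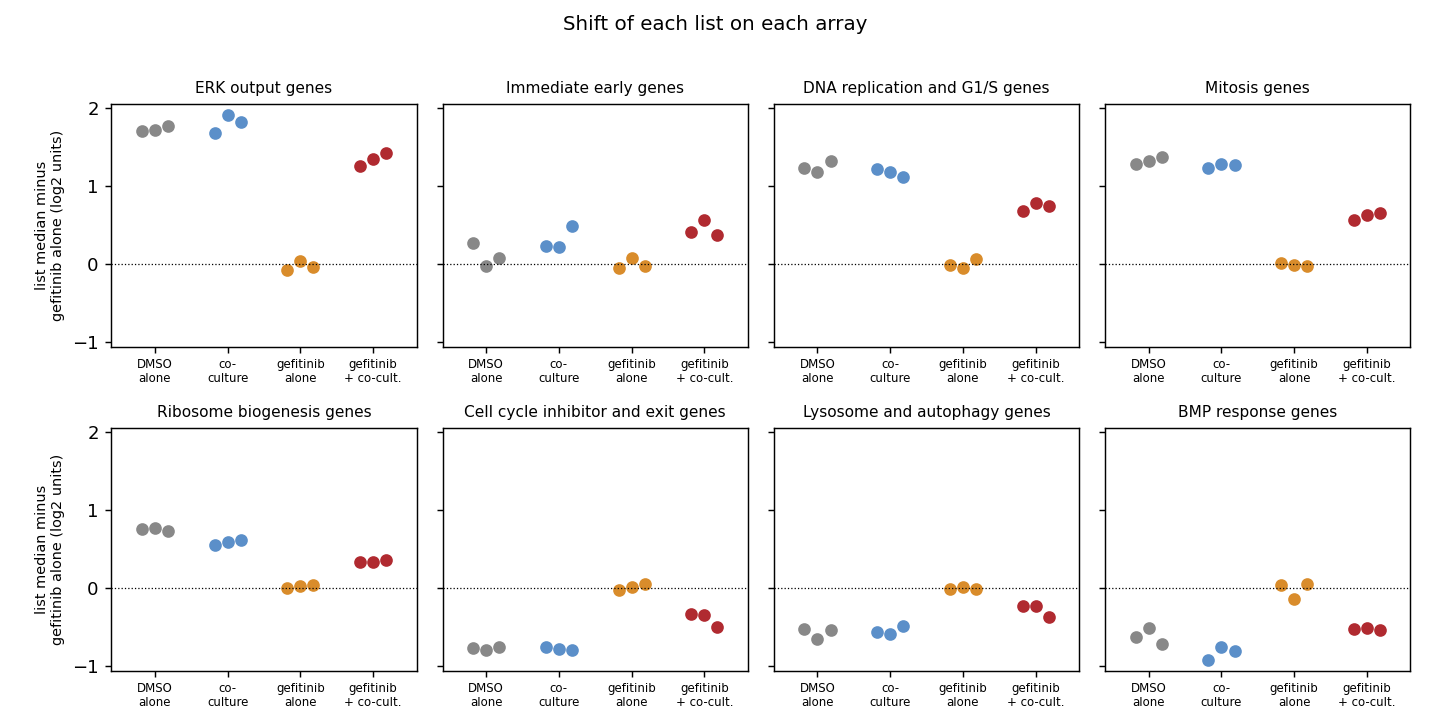
For 8 gene lists, the median over the tested members of each array's log2 level minus the gefitinib monoculture mean of the same gene; each point is 1 array. The gefitinib co-cultures lie at 1.255 to 1.424 for ERK output, 0.675 to 0.779 for replication and 0.565 to 0.652 for mitosis genes, between the gefitinib monocultures near 0 and the groups without drug, and at -0.498 to -0.343 for cell cycle inhibitors.

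The largest falls were in genes that stood much higher in the gefitinib monocultures than with DMSO. NLRP7, a member of the NLR family, had log2 levels of 8.35, 8.43 and 8.16 in the gefitinib monocultures and 6.14, 6.27 and 6.08 in the gefitinib co-cultures. It fell by 2.15 ± 0.13, or 4.44-fold (adjusted p = 5.13e-06 by limma), and its DMSO mean was 4.67. INHA, the alpha subunit of inhibin, went from 7.37, 7.19 and 7.17 to 5.71, 4.82 and 4.90, close to its DMSO mean of 5.01. Array 1 of the gefitinib co-cultures was the highest of its group, and the groups did not overlap, which the rule for the largest falls required. TPPP3, a tubulin-binding protein, went from 8.08, 8.00 and 8.19 to 6.30, 6.06 and 5.77, a fall of 2.04 ± 0.15.

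IL32, a proinflammatory cytokine, went from 9.11, 9.03 and 8.94 to 7.33, 7.15 and 7.26, a fall of 1.78 ± 0.24 to a level still above its DMSO mean of 4.99. RETREG1, which marks endoplasmic reticulum for autophagy, went from 10.21, 10.32 and 10.36 to 8.62, 8.71 and 8.49, a fall of 1.69 ± 0.19, with a DMSO mean of 5.27. Both kept well over the level of undrugged cells. The other falls named by size were GASK1B (1.62), KANK4 (1.49), MFAP5, a microfibril protein (1.48), TMEM52B (1.47), the histone gene H4C5 (1.45) and C4BPB, a chain of the complement regulator C4b-binding protein (1.41), all as decreases in log2 units. H4C5 has near-identical copies that a probe could also bind, so its identity is uncertain. Each of the 12 largest falls kept its call and direction in all 22 other settings in which it was tested, median scaling included.

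ID proteins, which block differentiation factors and are classic targets of BMP signalling, fell. ID3 stood at 11.25, 11.28 and 11.27 in the gefitinib monocultures and 9.45, 9.38 and 9.37 in the gefitinib co-cultures. Each group was tight and they lay far apart, and ID3 fell by 1.87 ± 0.16 (adjusted p = 5.61e-05 by limma), with a DMSO mean of 7.59. ID2 went from 5.92, 5.62 and 5.76 to below background on all 3 co-culture arrays and was at least 2.05-fold lower. Outside the gefitinib monocultures ID2 was above background on 1 array. It passed the filter only through that group, so its call is no independent test of the difference. BAMBI, a decoy receptor of the pathway, fell by 0.68 ± 0.14, and ID1 by 0.45 ± 0.11, and both calls ended with median scaling over all probes. That of ID1 also ended without array 1 of the gefitinib monocultures or array 3 of the gefitinib co-cultures (highest adjusted p 0.0631). NOG, which encodes the secreted BMP antagonist noggin, was below background on all gefitinib monocultures and at least 1.72-fold higher in the gefitinib co-cultures (adjusted p = 0.02 by limma). That call ended without array 1 or 3 of the gefitinib monocultures or array 2 or 3 of the gefitinib co-cultures (highest adjusted p 0.0743). Of 10 tested BMP response genes, 4 fell, 1 rose and 5 did not pass, ID4 (-0.68) and SMAD7 (-0.56) among them, with a median of -0.50 that was -0.238, with 2 falls, with median scaling over all probes.

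Genes of lysosomes and autophagy fell in part. ULK1, the kinase that starts autophagy, went from 10.75, 10.72 and 10.86 to 9.96, 9.79 and 9.75, a fall of 0.94 ± 0.10 (adjusted p = 0.000233 by limma). GABARAPL1, an autophagosome protein, fell by 0.86 ± 0.11, WIPI1, which acts early in autophagosome formation, by 0.96 ± 0.20 and the sialidase NEU1 by 0.67 ± 0.09. Of 27 tested genes, 10 fell, 0 rose and 17 did not pass, with a median of -0.28, and 7 to 9 fell in fits without 1 compared array. With median scaling over all probes 4 fell and 1 rose, with a median of -0.04. PIK3IP1, an inhibitor of PI3 kinase, fell by 0.85 ± 0.12, SESN1, a stress-induced inhibitor of mTORC1, by 0.84 ± 0.14 and CITED2 by 0.71 ± 0.11, all 3 FOXO targets. Of 16 tested FOXO and receptor feedback genes, 5 fell, TRIB2 rose by 0.75 ± 0.15 and 10 did not pass, with a median of -0.13 that turned to 0.10 with median scaling over all probes, under which 2 fell, PIK3IP1 and SESN1.

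Interferon genes fell in small number. IFIT2, an antiviral protein induced by interferon, stood at 9.30, 9.09 and 8.98 in the gefitinib monocultures and 8.43, 8.01 and 7.79 in the gefitinib co-cultures, a fall of 1.04 ± 0.21 (adjusted p = 0.00731 by limma) without overlap, to a level above its DMSO mean of 6.13. EPSTI1 went from 8.34, 8.31 and 8.34 to 7.53, 7.50 and 7.25, a fall of 0.90 ± 0.11. Of 38 tested type 1 interferon genes, 6 fell, 0 rose and 32 did not pass, against 6.36% of all genes lower and 7.1% higher. The other falls were IRF7 (-0.56), IRF9 (-0.44), MX1 (-0.41) and ISG15 (-0.39). The list had a median of -0.27 that was -0.015 with median scaling over all probes. The number of falls was 2 to 5 in fits without 1 compared array and lowest without array 2 of the gefitinib monocultures, and IFIT1 (-0.34), IFI6 (-0.06) and IFI44L (-0.02) were among those that did not pass. Of 14 tested MHC class 1 genes, 3 fell, the peptide transporter gene TAP1 (-0.51), TAPBP (-0.51) and HLA-B (-0.48), with a median of -0.24 that turned to 0.036 with median scaling over all probes, which ended the 3 calls. HLA-B lies in a family of similar sequences, and its call also ended without array 2 or 3 of the gefitinib monocultures or array 3 of the gefitinib co-cultures (highest adjusted p 0.0678).

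A promoter element was counted over the tested interferon genes. The interferon response element ISRE was searched as TTTC, any 2 bases and TTTC on either strand, and it was found in 20 of 30 interferon genes with a window (66.7%), against 3.3% of all genes. The share describes the list and not the genes that changed. Of the genes that fell, EPSTI1, MX1 and ISG15 held a match, and none was found for IFIT2, IRF7 and IRF9. For these 3 the count does not tell a window without a match from a gene without a window. EPSTI1 is shown as the holder with the smallest p. It lies at chr13:42992242-42992491 on the minus strand of GRCh38.p14, and its match, on the opposite strand and in capitals, is at -50 to -41.
EPSTI1: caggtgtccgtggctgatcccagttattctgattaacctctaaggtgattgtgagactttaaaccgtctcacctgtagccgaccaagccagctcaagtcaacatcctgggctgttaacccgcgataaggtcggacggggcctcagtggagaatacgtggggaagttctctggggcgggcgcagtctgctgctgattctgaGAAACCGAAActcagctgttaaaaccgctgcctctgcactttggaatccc

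Of 22 tested receptors and their ligands, 2 rose, EPHA2 and HBEGF, and ERBB3 fell, a share close to the 13.5% of all genes. MET went from 9.97, 10.43 and 10.35 to 10.23, 10.09 and 9.90, with overlapping groups and a difference of -0.17 ± 0.14 (adjusted p = 0.491 by limma). AXL differed by 0.29 ± 0.12 (adjusted p = 0.137), EGFR by 0.20 ± 0.09 (0.208), ERBB2 by -0.22 ± 0.10 (0.206) and IGF1R by -0.13 ± 0.20 (0.751), none of which passed limma. ERBB3, the kinase-impaired partner of ERBB2, fell by 0.45 ± 0.09 (adjusted p = 0.00636 by limma), a call that ended with median scaling over all probes (-0.156, adjusted p = 0.482). That scaling called 6 rises, AXL (0.564, adjusted p = 0.0377) and EGFR (0.488, adjusted p = 0.0263 by limma) among them, and 0 falls. Of 7 more listed, FGFR1, FGFR2, KIT and IGF1 among them, no probe passed the filter, so nothing is said of their change.

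Among the BCL2 family, which sets the threshold for apoptosis, BMF, a pro-apoptotic member, fell from 7.92, 8.07 and 8.16 to 7.52, 7.27 and 7.34, by 0.67 ± 0.12 (adjusted p = 0.00364 by limma), and stayed above its DMSO mean of 5.23. Its call ended with median scaling over all probes. PMAIP1, which encodes the pro-apoptotic NOXA, rose by 0.48 ± 0.12, a call that ended without array 1 or 3 of either compared group (highest adjusted p 0.0889). The other 14 of 16 tested members did not pass, among them BCL2L11, which encodes BIM (0.29, adjusted p = 0.226), and MCL1 (0.25, adjusted p = 0.122 by limma). With median scaling over all probes 4 members rose, BCL2L11 (0.48, adjusted p = 0.0429) and MCL1 (0.519, adjusted p = 0.0236 by limma) among them. The 2 calls of 16 are a share close to the 13.5% of all genes.

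Cytokine signalling genes were mixed. IL6 stood at 8.34, 8.22 and 8.36 in the gefitinib monocultures and 7.87, 7.67 and 7.74 in the gefitinib co-cultures, which did not overlap, but the difference of -0.55 ± 0.23 did not pass (adjusted p = 0.15 by limma). SOCS3, a feedback inhibitor induced by STAT3, went from 5.67, 4.72 and 5.33 to 5.79, 5.87 and 6.32, a difference of 0.75 ± 0.27 that did not pass either (adjusted p = 0.0986) but did with median scaling over all probes (0.955, adjusted p = 0.0216 by limma). IL4R, the interleukin 4 receptor, rose by 0.73 ± 0.09 (adjusted p = 0.000554 by limma). Of 22 tested JAK/STAT3 genes, 4 rose and 2 fell, against 7.1% of all genes higher and 6.36% lower. The falls were STAT3 (-0.39, adjusted p = 0.0364 by limma) and SOCS1 (-0.78, adjusted p = 0.0386 by limma). SOCS1 was above background on 1 of the 3 gefitinib co-cultures. The list had a median of -0.01 that was 0.177 with median scaling over all probes. In fits without 1 compared array, 1 to 3 rose and 0 to 1 fell, and both falls ended in 5 of those 6 fits. Of 23 tested chemokines and cytokines, CXCL8 rose and 4 fell, IL32, CXCL16 (-0.49), IL1RN (-0.40) and IL23A (-0.78). With median scaling over all probes IL32 alone of these fell and 3 members rose. The call of IL23A also ended without array 1 or 2 of either compared group (highest adjusted p 0.0749), and that of IL1RN without array 3 of either (highest adjusted p 0.067). The ligand of PD-1, CD274, was above background on 0 gefitinib monoculture and 1 gefitinib co-culture array, and the checkpoint ligand VTCN1 differed by -0.24 ± 0.16 (adjusted p = 0.372 by limma).

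Genes tied to adhesion and the matrix changed in both directions. CCN2, a matricellular protein induced by YAP and by TGF-beta, went from 10.21, 10.21 and 10.29 to 11.77, 11.68 and 11.47, a rise of 1.40 ± 0.10 (adjusted p = 1.35e-05 by limma) to a level above all arrays without drug. Of 20 tested YAP targets, 3 rose, CCN2, NT5E, the ecto-enzyme CD73 (1.06 ± 0.11), and ANKRD1 (0.89 ± 0.19), and 4 fell, ARHGEF17 (-0.88), FSTL1 (-0.73), LATS2 (-0.61) and MYOF (-0.49), with a median of -0.07. Over all genes tested, 7.1% rose and 6.36% fell. Median scaling over all probes turned the median of the YAP targets to 0.178, with 5 rises, and left ARHGEF17 as the 1 fall. The call of LATS2 also ended without array 1 or 3 of the gefitinib monocultures or array 2 or 3 of the gefitinib co-cultures (highest adjusted p 0.112). CCN1, the close relative of CCN2, differed by 0.29 (adjusted p = 0.233 by limma). ITGA6, a laminin receptor subunit, went from 5.96, 6.28 and 5.94 to 7.33, 7.27 and 7.90, a rise of 1.44 ± 0.17, and ITGA2, a collagen receptor subunit, rose by 0.63 ± 0.11. The matrix protease MMP7 rose by 1.37 ± 0.16, from 6.31, 6.63 and 6.18 to 7.72, 7.87 and 7.66.

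Some epithelial and contractile genes were lower under the reported scaling. The tight junction gene CLDN3 fell by 0.97 ± 0.19 and the cytokeratin gene KRT7 by 0.45 ± 0.09. CDH1, which encodes E-cadherin, went from 11.09, 11.08 and 10.93 to 10.53, 10.70 and 10.59, a fall of 0.43 ± 0.09 that left it above its DMSO mean of 9.98. Of 23 tested epithelial genes, 4 fell, 1 rose and 18 did not pass, against 6.36% of all genes lower and 7.1% higher. Their median was -0.19. Median scaling over all probes turned the median to 0.078 and left CLDN3 as the 1 fall. The rise, KRT18 (0.54), ended without each of 5 of the 6 compared arrays (highest adjusted p 0.0937). VIM, the mesenchymal filament, differed by -0.01 ± 0.17 (adjusted p = 0.977 by limma). TAGLN, an actin-binding protein, fell by 0.71 ± 0.17, from a mean of 10.25 to 9.54, a call that ended without array 1 of the gefitinib monocultures or array 3 of the gefitinib co-cultures (highest adjusted p 0.0688). TNNC1, a troponin, fell by 1.34 ± 0.13. Of 16 tested actin and contractile genes, 6 fell, CNN3 rose (0.37) and 9 did not pass, with a median of -0.10 that turned to 0.155 with median scaling over all probes, which left TNNC1 as the 1 fall. The number of falls was 2 without array 1 of the gefitinib monocultures, 3 without array 3 of the gefitinib co-cultures and 4 without any other compared array. The rise of CNN3 ended without array 1 or 2 of the gefitinib monocultures or array 2 or 3 of the gefitinib co-cultures (highest adjusted p 0.115). Of 19 tested fibroblast markers, 0 rose and 4 fell, MFAP5, COL5A1 (-0.60), FBLN2 (-0.75) and TAGLN. The falls numbered 2 without array 1 of the gefitinib monocultures, and 2 fell and 3 rose with median scaling over all probes. The reference transcripts ACTB (-0.02 ± 0.10) and GAPDH (-0.03 ± 0.10) did not pass.

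**Figure D3:**
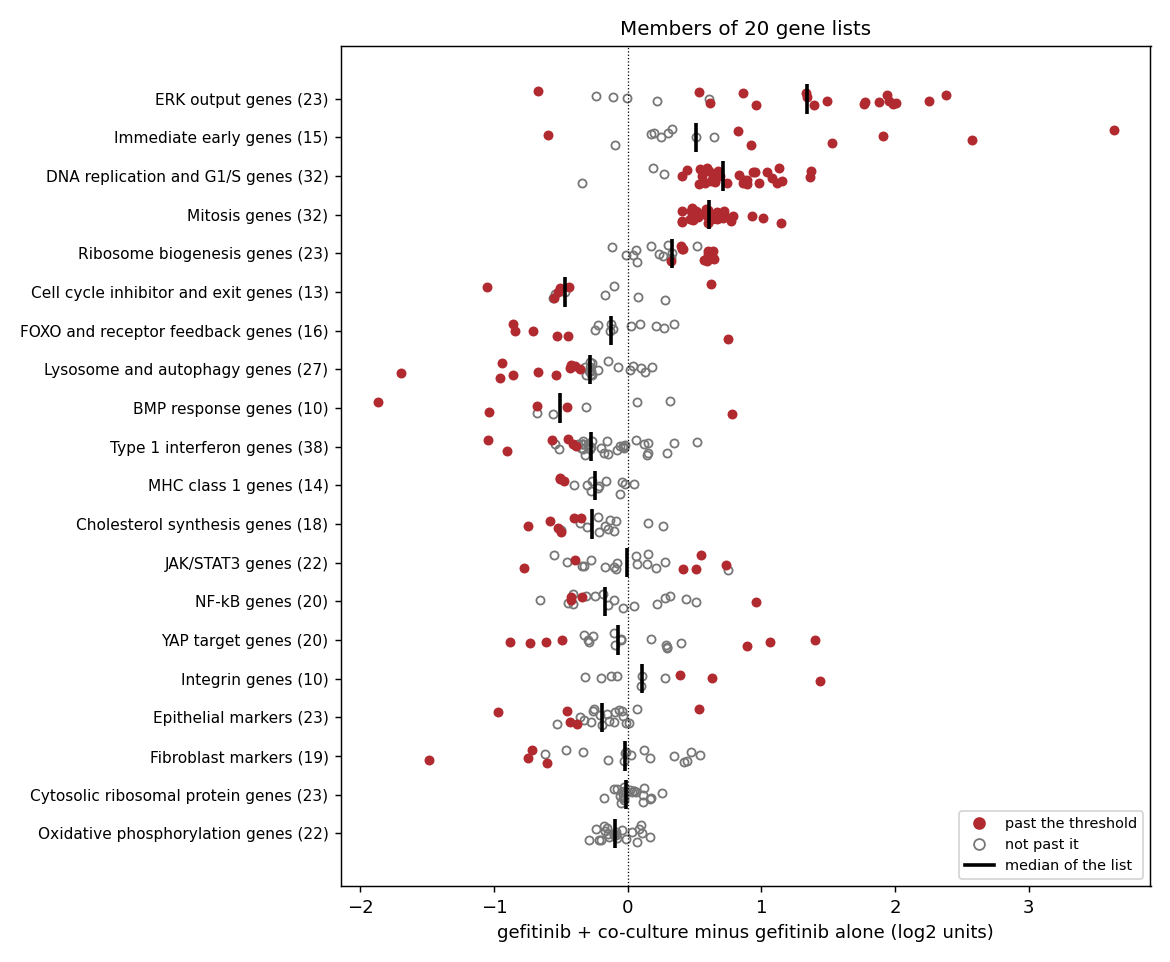
Difference between gefitinib co-culture and gefitinib monoculture in log2 units, 1 point per tested gene, for 20 gene lists with the number tested in brackets; filled points passed limma at an adjusted p under 0.05 and the bar is the median. ERK output (median 1.34), replication (0.72) and mitosis genes (0.61) lie to the right and cell cycle inhibitors (-0.47) and BMP response genes (-0.50) to the left, while the medians of the FOXO, MHC class 1, NF-kB, YAP, JAK/STAT3, epithelial, fibroblast, ribosomal protein and oxidative phosphorylation lists turned positive with median scaling over all probes.

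The same 3 against 3 comparison without drug, which shares no array with the one under gefitinib, called 48 genes (0.355%), 32 higher (0.237%) and 16 lower (0.118%), and 1599 at an unadjusted p under 0.05. It called 11 to 42 in fits without 1 array, with 18, 21 and 18 without DMSO array 1, 2 or 3 and 22, 26 and 11 without co-culture array 1, 2 or 3, and the arrays of the groups did not overlap for 17.5% of genes (9.28% upward, 8.23% downward). The median size of a difference over all genes was 0.129 log2 units against 0.186 under gefitinib. Across genes the effects under and without gefitinib had a correlation of 0.004, a description over genes that share arrays and background. The difference between the effects passed limma in 983 genes (7.27%), 532 upward (3.94%) and 451 downward (3.34%), and in 629 without array 2 and 575 without array 3 of the gefitinib co-cultures. Of the 1820 genes called under gefitinib, 824 (45.3%) were among them. Without drug, EGR1 differed by 0.24 ± 0.10, FOS by 0.30, CXCL8 by 0.17, TGM2 by 0.02 and ETV5 by 0.35, and none of them passed. For the ERK output list the difference between effects passed in 16 of 23 genes, and for replication and mitosis genes in 24 of 32 each, upward in each case.

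Some genes changed with co-culture whether or not the drug had been given. Genes called in both comparisons numbered 20, which is 41.7% of the genes called without drug and 1.1% of those called with it. Of these 20, 17 had the same sign. The examples that follow were chosen after their values were seen. DEFB1, an epithelial defensin, went from 5.56, 6.13 and 5.54 to 7.65, 7.45 and 7.54 under gefitinib, a rise of 1.80 ± 0.16, and rose by 1.49 without drug, and the difference between these rises did not pass (0.31 ± 0.23, adjusted p = 0.462 by limma). AGR2, a protein disulphide isomerase of secretory epithelia, rose by 1.60 ± 0.14 and by 1.02, and PLAT, the tissue plasminogen activator, by 1.06 ± 0.12 and by 1.05. The kinase DCLK1 fell by 1.23 ± 0.22 under gefitinib, and its difference without drug was -1.22. ID3 was also lower in both, with -1.87 under gefitinib and -1.02 without drug, but the difference between these falls passed (-0.85 ± 0.23, adjusted p = 0.0464 by limma). TAGLN (-0.71 under gefitinib and -1.37 without) and MFAP5 (-1.48 and -0.79) were called lower in both as well. For neither did the difference between effects pass. The 3 genes of opposite sign were GSN, which encodes the actin-severing protein gelsolin (-0.70 under gefitinib and 0.72 without), FOXO4 (-0.53 and 0.63) and MARCHF4 (0.65 and -0.80).

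**Figure D4:**
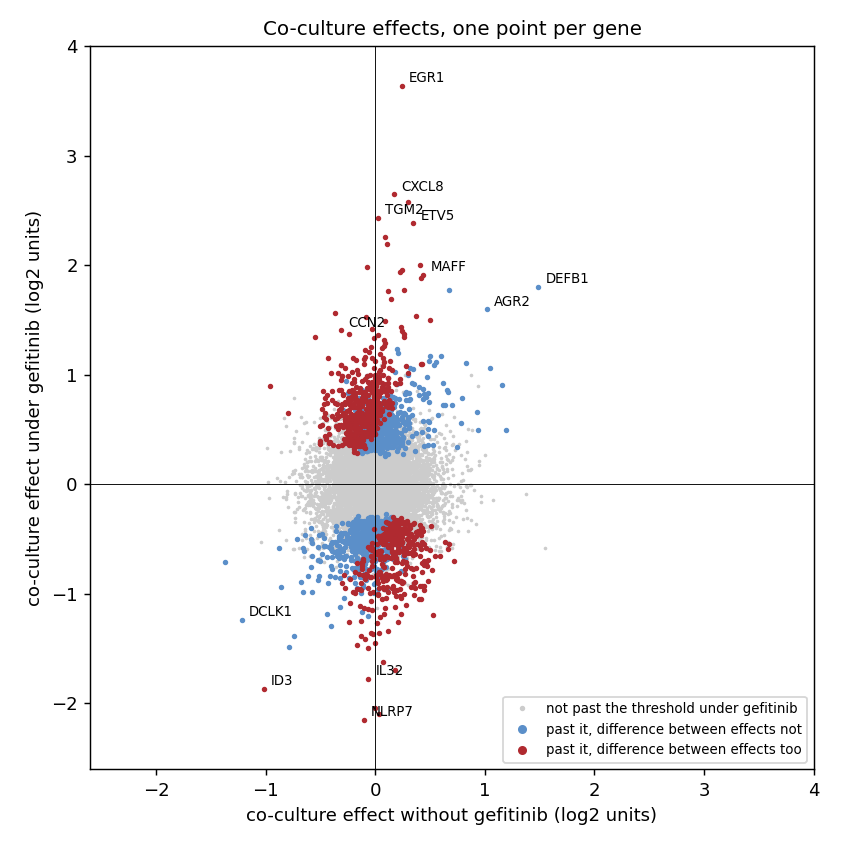
Co-culture effect under gefitinib against that without gefitinib in log2 units, 1 point per tested gene; grey points did not pass limma under gefitinib, blue points passed with no difference between effects called, and red points passed with that difference called as well. EGR1, CXCL8, TGM2 and ETV5 lie high near 0 on the horizontal axis, and DEFB1, AGR2, DCLK1 and ID3 lie off both axes.

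A few genes were below background on every array of 1 group. CCK, the hormone cholecystokinin, was at least 2.13-fold higher in the gefitinib co-cultures, with 0 of 3 gefitinib monocultures and 3 of 3 gefitinib co-cultures above background (adjusted p = 7.26e-05 by limma). HECW1, a ubiquitin ligase, was at least 1.55-fold higher. In the other direction the purine receptor P2RY1 was at least 1.74-fold lower and the host gene MIR9-2HG at least 1.64-fold lower. HECW1, P2RY1 and MIR9-2HG were above background only on the 3 arrays of their higher group. Each passed the filter through that group alone, so its call is no independent test of the difference. Leaving out 1 of those arrays removed the gene from the tested set. A bound sets the mean of the brighter group against, on each array of the other, the higher of the dimmest detected signal and the probe's own, so that it equals the measured ratio where the probe's own signal is the higher throughout. Further bounds, for ACOX2 (at least 1.81-fold higher), RLN2 (1.62), ZNF22-AS1 (1.49), CDH26 (1.79-fold lower), SUCLG2-DT (1.70) and RBM24 (1.68), belong to calls that ended without at least 2 of the compared arrays each. On their fitted probes SUCLG2-DT and RBM24 were each above background on 1 array outside the gefitinib monocultures. They too passed the filter only through that group.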

How the data were processed

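RNA from 12 PC9 cultures, 3 arrays for each of 4 groups, was labelled as biotinylated cRNA and hybridised to Illumina bead arrays, per the labels. The authors deposited a table of raw probe intensity values with a detection p-value for each probe and array, per the file headers, and a table of normalized values that served only as an alternative, since no header or label names its method. Each normalized column matched its own array best (12 of 12).

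Of 48107 probes, 5 with a missing value were left out. Background correction, quantile normalization and log2 transformation were done with neqc in limma 3.58.1 (R 4.3.3), with an offset of 16. Probes with a detection p under 0.05 on at least 3 of the 12 arrays were kept (25510). The platform annotation named 1 gene for 18289 of these and several for 4, and 7217 are unnamed here. The brightest probe stood for each of 13514 genes, so levels of different genes are not compared. A fit of the 4 group means on all 12 arrays gave the contrasts, with moderated standard errors (8 residual and 3.3 prior degrees of freedom) and Benjamini-Hochberg adjustment over all genes at 0.05, two-sided. The design was tested on simulated data in which fewer genes changed than were called here. Of 100 genes shifted by 0.585 log2 units 40 were recovered, and of 100 shifted by 1 log2 unit 80 were, with 7 other genes called. A gene that did not pass can therefore have changed. The number of arrays limits the precision.

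The gene lists, the comparison and the tests were chosen with earlier results of these data known. Genes were named by rule: for each contrast the 12 largest rises and falls (8 for the difference between effects) among called genes above background in both groups whose arrays did not overlap, the 6 largest bounds each way for genes below background in 1 group, up to 4 members per list and direction with the smallest p and any counterexample, and a fixed set around EGFR signalling. FOSB, JUN, WIPI1, PRC1, MX1, ISG15, KCNK6, KREMEN2, members named as not passed and genes called in both comparisons were picked after their values were seen. Promoters come from RefSeq (GRCh38.p14).

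Same-numbered arrays of the 2 compared groups had correlations of their deviations of 0.017 to 0.039, and differently numbered ones -0.022 to 0.001. The former were higher but all were small, so the numbers were not taken as pairs. As alternatives, each result was computed with median scaling over all or over the passing probes, without background correction, from the deposited normalized values, with other probe filters and probe rules, a replicate block, array weights, a fit of the compared groups only, a fold minimum and leaving out each array.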

Additional observations from a re-analysis of the deposited data

Results flagged for a closer look

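For 16 genes the co-culture effect under gefitinib differed from that without it, by the test of the difference itself in the fit over all 12 arrays. They are the 8 largest differences each way among genes above background in all 4 groups whose compared arrays under gefitinib did not overlap, and the values below are that difference in log2 units (effect under gefitinib minus effect without it). It was positive for EGR1 (3.395), CXCL8 (2.4775), TGM2 (2.4078), FOS (2.2771), PHLDA1 (2.1641), MALL (2.0856), FOSL1 (2.0522) and ETV5 (2.0353), with adjusted p from 9.2e-07 to 0.00244 by limma. The choice required groups that do not overlap, and for each of these 8 genes the 3 gefitinib co-cultures lay above the 3 gefitinib monocultures. It was negative for INHA (-2.1385), TPPP3 (-2.0427), RETREG1 (-1.871), RGCC (-1.7172), IL32 (-1.7114), IFIT2 (-1.4614), TNNC1 (-1.46) and CDKN2B (-1.4507), with adjusted p up to 0.015 by limma. RGCC, a regulator of the cell cycle, fell by 1.19 ± 0.15 under gefitinib, from 8.22, 8.03 and 8.03 to 7.17, 6.61 and 6.92, and differed by 0.52 without it. Outside those limits lay SCD, a fatty acid desaturase, with a difference of -2.14 (1.55 without gefitinib and -0.58 under it), NLRP7 (-2.05) and GASK1B (-1.69). Groups of 3 arrays were not searched for single outlying arrays.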

How the results depend on the processing

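The count of genes called under gefitinib was 1254 to 2268 over the settings that kept the threshold and all arrays, against 1820, and 829 (469 higher, 360 lower) at 1.5-fold or more. Median scaling over all probes gave 1946 higher and 189 lower. Of 94 named falls it kept 37, and scaling over the passing probes, chosen after seeing the data, kept 84. Without 1 array the count was 1096 to 1757 (617 to 914 higher, 479 to 847 lower), the count without gefitinib 11 to 42, and that of the difference 575 to 955. The count without gefitinib was 124 without background correction, 17 with median scaling, 119 with the deposited normalized values, 85 with the strict filter, 19 with the replicate block and 3 with only the compared groups. The count of the difference was 1475 without background correction and 1668 with median scaling. The replicate block gave 1531 calls under gefitinib, and the numbers were not taken to pair the arrays.

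With median scaling list medians turned positive for FOXO (0.1), MHC class 1 (0.036), NF-kB (0.107), fatty acid synthesis (0.165), liver X receptor (0.16), oxidative phosphorylation (0.18), YAP (0.178), TGF-beta (0.153), actin (0.155), epithelial (0.078) and solute carrier genes (0.011), as did 6 further lists (receptors, JAK/STAT3, matrix, drug tolerance, ribosomal proteins and fibroblast markers). Other turns were of medians near 0: immune checkpoint genes (-0.002 with the deposited normalized values, -0.037 with passing-probe scaling), glucocorticoid genes (-0.004 with the strict filter, -0.044 with passing-probe scaling, -0.069 to 0.115 without 1 array), TGF-beta genes (0.037 with the mean of the probes), and chemokine (-0.029 with passing-probe scaling, -0.018 to 0.185 without 1 array) and hypoxia genes (-0.028 to 0.105 without 1 array). With the mean of the probes the difference between effects turned to 0.524 for ALDH1A1 and 0.166 for HOPX. The cause was not tested. Signal over background limits genes such as DUSP4, SPRY4 and ID2, for which 1 group gives only a bound on the fitted probe.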

Other observations

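Some ATF4 genes were higher in the gefitinib co-cultures and others lower. PSAT1, a transaminase of serine synthesis, went from 8.77, 8.68 and 9.03 in the gefitinib monocultures to 9.68, 9.64 and 9.79, a rise of 0.87 ± 0.12 (adjusted p = 0.00112 by limma). The groups did not overlap. PHGDH, the first enzyme of that route, rose by 0.69 ± 0.11 and MTHFD2, a mitochondrial folate enzyme, by 0.81 ± 0.12. The amino acid transporter chains SLC7A5 (-0.45) and SLC3A2 (-0.44) and the lipoprotein receptor VLDLR (-0.90) fell. Of 28 tested ATF4 genes, 6 rose and 4 fell, against 7.1% of all genes higher and 6.36% lower. The list had a median of 0.07, and ATF4 itself differed by 0.21 (adjusted p = 0.168 by limma). Without 1 compared array 4 to 6 rose and 1 to 4 fell, fewest falls without array 3 of the gefitinib co-cultures, and the falls of SLC7A5 and SLC3A2 ended with median scaling over all probes (adjusted p = 0.312 and 0.409 by limma).

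Some genes induced by low oxygen and of glucose use passed in each direction, but most did not pass. Of 20 tested glycolysis genes, 2 rose, 1 fell and 17 did not pass, a share of calls close to the 13.5% of all genes. Their median was 0.03. Of 20 tested hypoxia genes, 2 rose, 4 fell and 14 did not pass, against 7.1% of all genes higher and 6.36% lower. The hypoxia list had a median of 0.05. NDRG1, a hypoxia and stress response gene, went from 10.58, 10.57 and 10.31 to 9.49, 9.46 and 9.51, a fall of 1.00 ± 0.10 to under its DMSO mean of 10.30. ANKRD37, a target of hypoxia-inducible factor, fell by 1.08 ± 0.08 (adjusted p = 2.9e-05 by limma), while hexokinase HK2 rose by 0.74 ± 0.12 and the enolase ENO2 by 0.71 ± 0.11. The hypoxia genes ANGPTL4 (1.15) and CA12 (0.72) rose, calls that ended in 3 and 4 of the fits without 1 compared array. The glycolysis gene SLC2A3 fell (-0.64). With median scaling over all probes 6 hypoxia genes rose and 2 fell, and 5 glycolysis genes rose and 0 fell. The insulin-like growth factor binding protein IGFBP5 went from 9.03, 8.87 and 9.05 to 8.14, 7.58 and 7.46, a fall of 1.26 ± 0.20, and its relative IGFBP4 from 8.08, 8.13 and 8.25 to 9.25, 9.51 and 9.65, a rise of 1.32 ± 0.11. Both differences ran toward the DMSO means, 4.79 for IGFBP5 and 10.32 for IGFBP4. PTGER4, a receptor for prostaglandin E2, rose by 0.75 ± 0.09 (adjusted p = 0.000349 by limma), and the cyclooxygenase PTGS2 differed by -0.15 (adjusted p = 0.511).

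Cholesterol synthesis genes were lower in part. DHCR7, which makes cholesterol in the last step of one branch, fell by 0.58 ± 0.11 and LSS, the cyclase that forms lanosterol, by 0.50 ± 0.10. Of 18 tested, 6 fell and 0 rose, with a median of -0.26, against 6.36% of all genes lower and 7.1% higher. The number of falls was 3 without array 2 of the gefitinib monocultures and 0 with median scaling over all probes, where the median was -0.042.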
